A study of Mus musculus with 8 samples.

Results

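The clustered protocadherins are 58 of the 24883 gene rows measured by RNA sequencing in mouse visual cortex. They were taken by symbol, as every row named Pcdha, Pcdhac, Pcdhb, Pcdhga, Pcdhgb or Pcdhgc followed by a number. No measured value entered this rule, but the members were chosen with earlier results of these data known. The 8 samples were visual cortex of C57BL/6J mice injected into the cortex on postnatal day 122 and sampled on postnatal day 129, 7 days later. Controls, 4 samples, were given a scrambled LNA, a short oligomer stiffened by bridged sugars. The other 4 received an LNA against miR-29a, one of the microRNAs, which pair with transcripts and lower their level. Every animal therefore had an injection and an oligonucleotide, and no uninjected cortex was used here. Whether each sample is a separate animal is not stated in the labels, and in 6 of the 8 libraries transcripts of both sexes were found, so samples may be pools. The spread behind each p-value is that between samples and may be technical in part.

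Clustered protocadherins are single-pass membrane proteins of the cadherin superfamily that neurons use as a surface barcode. Each neuron switches on a small, partly random set of them, their ectodomains bind matching copies on other membranes, and this matching underlies self-avoidance of dendrites and axons of one cell. The genes lie in tandem in the alpha, beta and gamma clusters. Each alternate alpha or gamma isoform has its own promoter and a large first exon that is spliced to constant exons shared by its whole cluster, whereas beta genes are made of a single exon. Promoter choice depends on CTCF and cohesin and on DNA methylation, which silences the promoters not chosen. The last genes of the alpha and gamma clusters, called C-type, are regulated apart from this choice and are expressed more evenly between neurons.

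The microRNA blocked here belongs to a family with a common seed, the stretch by which a microRNA finds its targets. The mature sequences are shown because the seed defines the sites counted further on. They come from RefSeq (GRCm38.p6), are written 5′ to 3′, and carry bases 2 to 8, the seed, in capitals. The loci are chr6:31062673-31062694 (minus strand) for miR-29a, chr1:195037091-195037113 (plus strand) for a miR-29b copy and chr1:195037600-195037621 (plus strand) for miR-29c.
mmu-miR-29a-3p: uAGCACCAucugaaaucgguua
mmu-miR-29b-3p: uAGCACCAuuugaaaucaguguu
mmu-miR-29c-3p: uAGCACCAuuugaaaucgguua
All 3 sequences share the seed, and 4 of 4 precursor rows of the family read 0 in every library, which leaves the microRNA without a readout here.

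The deposited values are FPKM, fragments scaled by transcript length and by library size, and each library listed 12538 to 12769 rows at 1 FPKM or more. How library size was scaled is not given in the sources used here. Differences between groups were tested with limma on log2(FPKM + 0.1) over the 13912 rows averaging 0.5 FPKM or more, and p-values were adjusted by Benjamini-Hochberg over all of them. Markers of cortical excitatory neurons were present in every library. Slc17a7, the vesicular glutamate transporter of these neurons, read 576.9 to 632.7 FPKM, and the summed level of 8 such markers was 765.8 to 793.1 FPKM in scrambled and 744.1 to 807.5 in anti-miR-29a libraries. Most of this sum is Slc17a7. The log2 difference between groups was positive for 4 of the 8 markers, and its median over them was -0.013. Neurod6, the marker of smallest p, read 21.9 to 24.2 FPKM in scrambled and 17.5 to 21.2 in anti-miR-29a libraries, without overlap (limma, adjusted p = 0.273). The part of Neurod6 in the differences of the members was not tested. The 4 oligodendrocyte markers summed to 723.9 to 1495.0 FPKM in scrambled and 808.9 to 1083.9 in anti-miR-29a libraries. At an unadjusted p under 0.05, Pvalb of 6 interneuron and Gja1 of 4 astrocyte markers were higher (limma, adjusted p = 0.44 and 0.385). In these lists 0 were lower, and 3 of 6 and 2 of 4 differences were positive. Their part in the differences of the members was not tested either. The 6 choroid plexus markers summed to 0.297 to 2.26 FPKM and none reached the filter. Of 4 thalamic markers all were detected at low level, with a sum of 11.1 to 15.3 FPKM. Scrambled replicate 2 stood apart from the other libraries on the first principal component, which held 19.9% of the variance, at -34.0 against -10.6 to 15.7. Results were therefore also computed without it and without each other library. On the same component the anti-miR-29a libraries scored 8.59 to 15.7 and the other scrambled libraries -10.6 to 0.891, without overlap. In tissue samples, fewer cells of a type and less RNA per cell cannot be told apart.

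The table was checked for shared and near-zero values. No value above 0 was shared between member rows of a library, no member symbol occurred on more than 1 row, and 3 of the 464 member values equalled that of some other row in the same library. In all, 7 values were exactly 0, all of them for Pcdhb1, and 3 lay above 0 but under 0.001 FPKM. These were Pcdha1 in anti-miR-29a replicate 1 (8.69e-16), Pcdha6 in scrambled replicate 3 (0.00011) and Pcdha8 in anti-miR-29a replicate 3 (8.74e-55). Values this small are estimates and cannot be whole reads divided by a length. Alpha and gamma isoforms share their constant exons, and how fragments from these were assigned is not given in the sources used here, so levels of single isoforms are uncertain. The row Pcdha7-g, outside the naming rule and mentioned after its values were seen, also held such values. It read 1.66 FPKM in scrambled replicate 2 and at most 6.15e-05 in the other 7 libraries, while Pcdha7 itself read 0.846 in scrambled replicate 2 against 1.26 to 1.34 in the other scrambled libraries. Beta genes share no exons, but they are close paralogs whose reads can be misassigned, and the library kit does not mark strand.

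The level of the members, before any comparison of groups, spanned a wide range. Of the 58 members 55 had a mean of at least 0.5 FPKM and 3 were low, Pcdhb1 at 0.0106, Pcdha8 at 0.226 and Pcdhb4 at 0.369 FPKM. The members just above the line were Pcdha1 at 0.533 and Pcdhb6 at 0.633 FPKM. Mean levels had a median of 1.32 FPKM over the 12 alternate alpha isoforms, 1.52 over the 22 beta genes, 5.65 over the 12 gamma-a isoforms and 2.53 over the 7 gamma-b isoforms. Within every one of the 8 libraries the gamma-a median (4.67 to 6.58 FPKM) lay above both the alpha median (1.09 to 1.44) and the beta median (1.16 to 1.498).

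**Figure D1:**
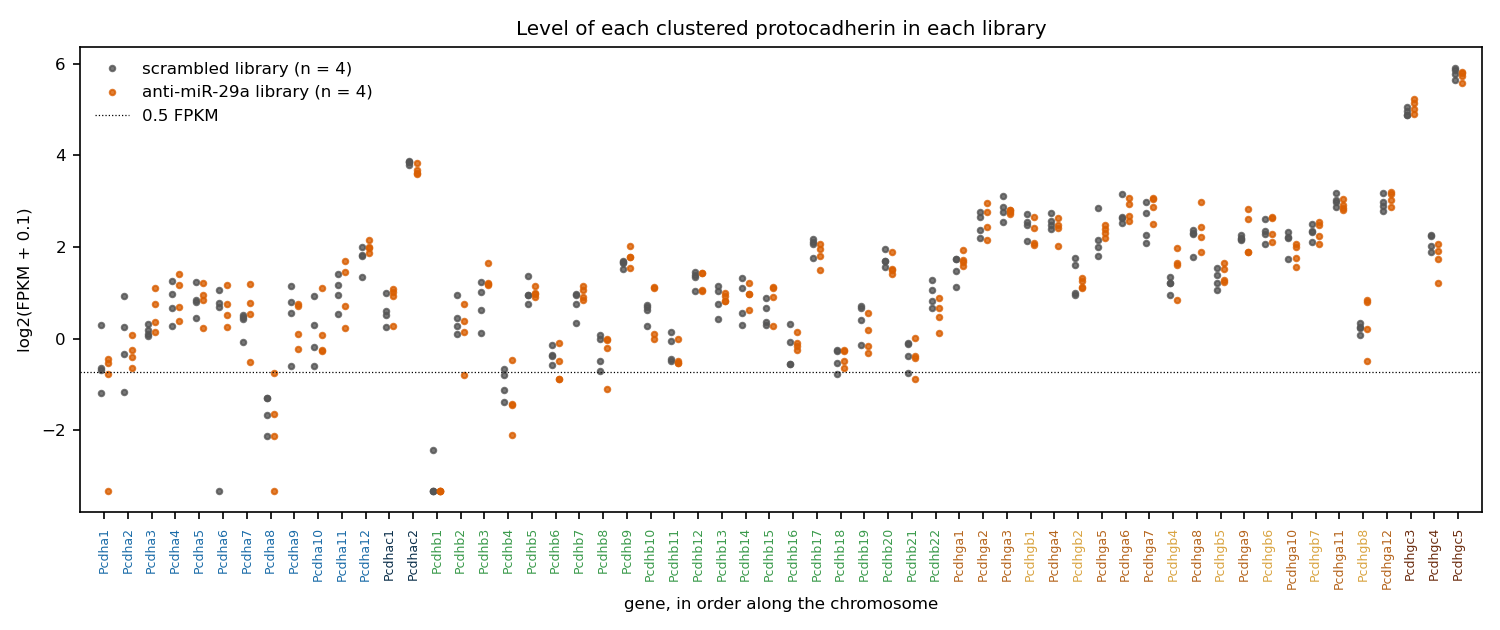
Level of each of the 58 clustered protocadherins in each library as log2(FPKM + 0.1), in order along chromosome 18, with 4 scrambled libraries in grey and 4 anti-miR-29a libraries in orange. Gene names are blue for alpha, green for beta and brown or ochre for gamma, with C-type genes darkest, and the dotted line marks 0.5 FPKM. Pcdhac2, Pcdhgc3 and Pcdhgc5 stand above all others, and the points of both groups overlap at every tested gene.

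The 3 most abundant members were C-type genes. Pcdhgc5 averaged 54.3 FPKM over the 8 libraries, Pcdhgc3 32.3, Pcdhac2 13.5, Pcdhgc4 3.76 and Pcdhac1 1.58. Each gene in this order exceeded the next in 8 of 8 libraries, by 0.75 ± 0.16, 1.25 ± 0.21, 1.85 ± 0.34 and 1.21 ± 0.57 on the log2(FPKM + 0.1) scale (SD over libraries). The order was read from these same libraries, so it is a description with no test. The 3 gamma C-type genes made up 48.1% to 50.3% of the summed FPKM of the gamma cluster in every library. The 2 alpha C-type genes made up 41.3% to 50.2% of the alpha cluster, and Pcdhac2 alone 37.6% to 46.3%. Pcdhgc4, which is known in mouse to be needed for neuronal survival, and Pcdhac1 lay within the range of the alternate isoforms.

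Among alternate isoforms the highest of each class were Pcdha12 at 3.62 FPKM, Pcdhb17 at 3.74, Pcdhga12 at 8.03 and Pcdhgb1 at 5.21. Next to them stood Pcdha11 and Pcdha4 in alpha (2.03 and 1.77 FPKM), Pcdhb9 and Pcdhb20 in beta (3.19 and 3.06), Pcdhga11 and Pcdhga3 in gamma-a (7.72 and 6.91), and Pcdhgb6 and Pcdhgb7 in gamma-b (5.16 and 4.97). The lowest were Pcdha8, Pcdhb1, Pcdhga1 at 3.02 FPKM and Pcdhgb8 at 1.16 FPKM. Pcdhgb8 is annotated as a polymorphic pseudogene in GENCODE. As a description, the Spearman correlation between order along the chromosome and mean level was 0.47 over the 12 alternate alpha isoforms, 0.17 over 22 beta genes, 0.31 over 12 gamma-a and -0.36 over 7 gamma-b isoforms. These points share libraries and, in alpha and gamma, constant exons.

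Each member was then compared between anti-miR-29a and scrambled cortex. As background, DNA methylation acts on the alternate promoters, and Dnmt3a, a gene of its enzymes, is a known miR-29 target. No clustered protocadherin passed the threshold. Of the 55 tested members 0 had an adjusted p under 0.05 (limma, lowest adjusted p = 0.445), beside 0.0144% of all tested rows. At an unadjusted p under 0.05 limma counted 1 member higher and 1 lower, 3.64% of the tested members, beside 10.7% of all tested rows (7.54% higher and 3.18% lower). The 4 libraries of one group lay entirely above or below the 4 of the other in 0 of 55 members, beside 6.31% of all tested rows (4.02% higher and 2.29% lower). The median log2 difference was 0.040 with 31 members positive and 24 negative, against a median of 0.026 over all tested rows, 56.6% of which were positive; under quantile normalization these medians were -0.0057 and -0.0085, with 27 members positive.

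**Figure D2:**
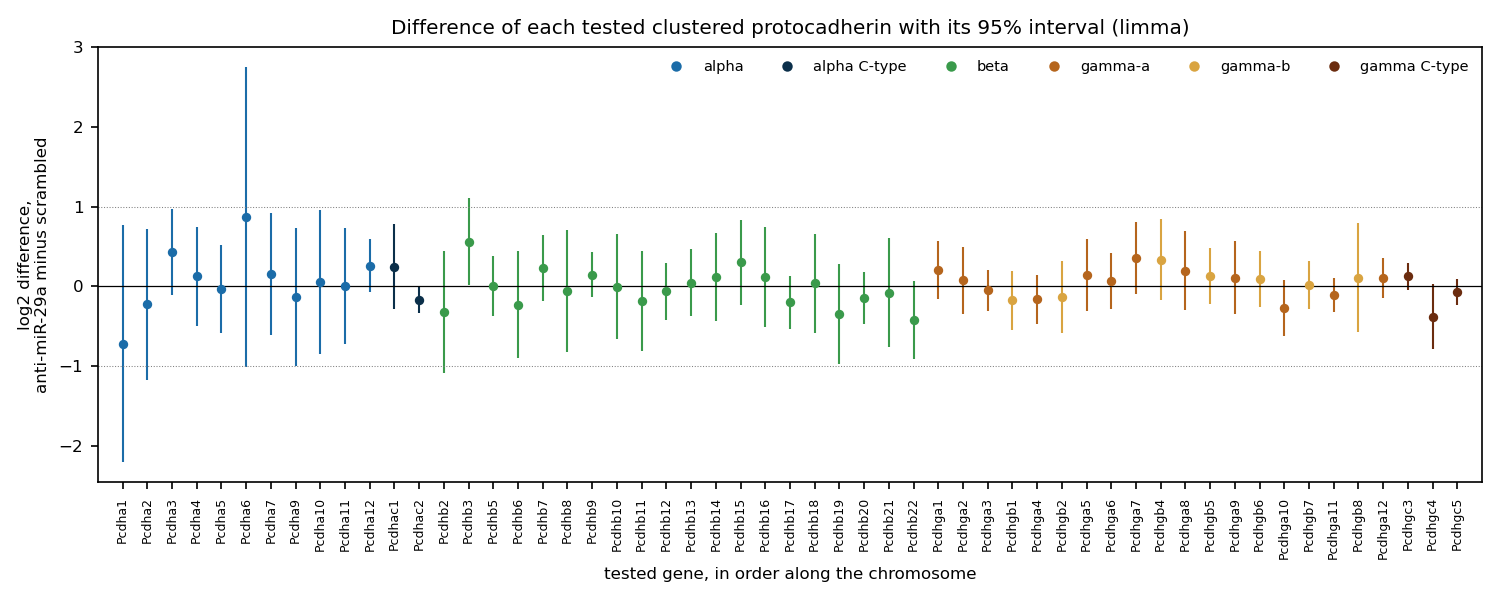
Log2 difference of anti-miR-29a minus scrambled libraries for the 55 tested members in order along the chromosome, with 95% intervals from limma (n = 4 per group). Dotted lines mark a 2-fold difference. Intervals of 50 members lie inside these lines, and those of Pcdha1 and Pcdha6 are the widest.

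The intervals say what size of change the data leave room for. For 50 of the 55 tested members the 95% interval of the difference lay within 2-fold in either direction. The same was true of 12347 of all 13912 tested rows, a similar share. Among members it held for 22 of 22 gamma members, 18 of 20 tested beta members and 10 of 13 tested members of the alpha cluster. The standard errors had a median of 0.34 log2 units for alternate alpha isoforms, 0.25 for beta, 0.16 for gamma-a and 0.17 for gamma-b, against 0.12 over all tested rows. Changes smaller than these intervals were not detectable with 4 libraries a group.

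Pcdhac2, the most abundant alpha isoform, was the member of smallest p. It read 13.7, 14.5, 14.6 and 14.4 FPKM in scrambled replicates 1 to 4 and 11.9, 12.2, 12.7 and 14.1 FPKM in anti-miR-29a replicates 1 to 4. Anti-miR-29a replicates 1 to 3 lay below all scrambled libraries, and replicate 4 lay among them. The log2 difference was -0.17 with a standard error of 0.072 and a 95% interval of -0.33 to -0.0070 (limma, unadjusted p = 0.0424, adjusted p = 0.445). An exact two-sided permutation over 70 relabellings gave p = 0.0571, and 0.286 when adjusted over the 5 C-type genes. The difference was -0.22 without anti-miR-29a replicate 4 and -0.14 without replicate 1 of that group.

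Pcdhac2 also took a smaller share of the alpha cluster in the anti-miR-29a libraries, 39.5% ± 2.24 against 44.3% ± 1.34 of the summed FPKM (SD, n = 4 per group), a comparison without a test of its own because it restates the gene. The other alpha C-type gene, Pcdhac1, read 1.89, 1.42, 1.09 and 1.32 FPKM in scrambled and 1.94, 1.12, 1.81 and 2.03 in anti-miR-29a libraries. Its groups overlapped widely (log2 difference 0.25, 95% interval -0.28 to 0.78; exact permutation p = 0.343), and single libraries left out moved it from 0.13 to 0.43.

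Pcdhgc4 had the next smallest p among C-type genes. It read 3.59, 4.73, 3.99 and 4.59 FPKM in scrambled libraries and 4.09, 3.23, 3.64 and 2.21 in anti-miR-29a libraries. The lowest value was that of anti-miR-29a replicate 4, replicate 2 also lay below the scrambled range, and replicates 1 and 3 lay within it. The log2 difference was -0.38 with a 95% interval of -0.79 to 0.035 (limma, adjusted p = 0.501; exact permutation p = 0.143), and -0.20 without anti-miR-29a replicate 4.

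Pcdhgc3 and Pcdhgc5 were the most abundant members, with standard errors of 0.076 and 0.071 log2 units. Pcdhgc3 read 33.0, 31.4, 29.6 and 29.2 FPKM in scrambled and 30.0, 37.4, 35.3 and 32.3 in anti-miR-29a libraries. Its difference was 0.13 log2 units, with a 95% interval of -0.041 to 0.30 (limma, adjusted p = 0.582; exact permutation p = 0.171), and it was 0.078 without anti-miR-29a replicate 2. Pcdhgc5 read 50.2, 59.8, 54.7 and 57.9 FPKM in scrambled and 47.7, 56.2, 52.8 and 55.4 in anti-miR-29a libraries, a difference of -0.068 with an interval of -0.23 to 0.091 (limma, adjusted p = 0.769; exact permutation p = 0.429). Both groups of Pcdhgc5 overlapped almost entirely, and replicate 1 was the lowest library of each.

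**Figure D3:**
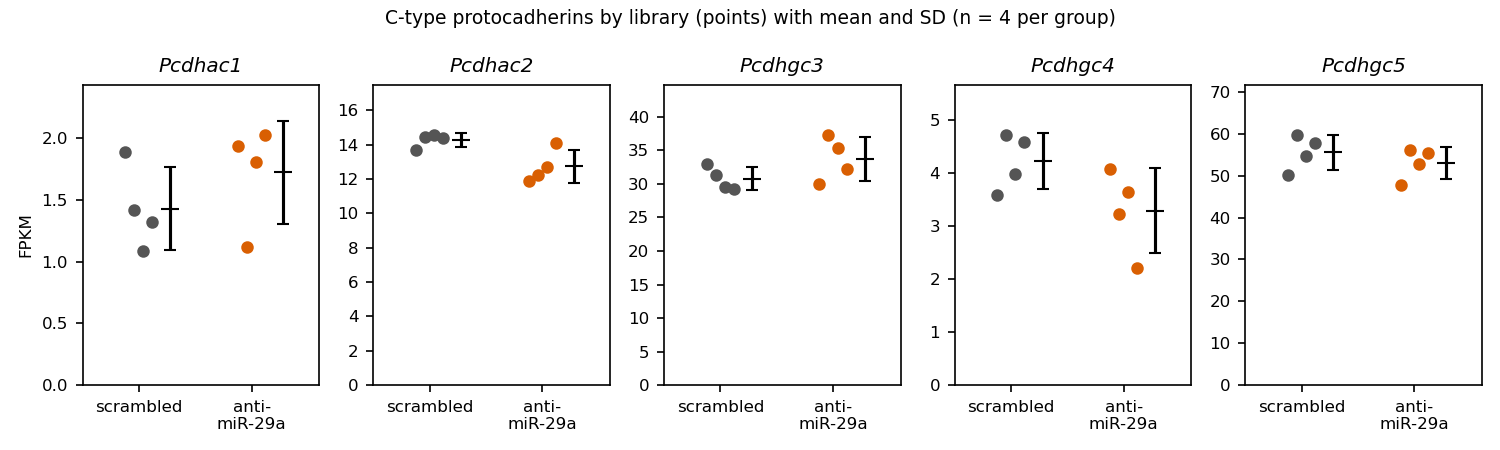
FPKM of the 5 C-type genes in each of 4 scrambled (grey) and 4 anti-miR-29a (orange) libraries, with the mean and SD of each group in black and axes starting at 0. Pcdhac2 is lower in 3 of the 4 anti-miR-29a libraries than in any scrambled one, and no gene has groups that do not overlap.

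Beta genes had a median difference of -0.031 log2 units, with 9 of 20 tested members positive. It was 0.010 without anti-miR-29a replicate 1 and 0.016 without replicate 4 of that group. Pcdhb3 was the only other member with an unadjusted p under 0.05. It read 1.43, 2.26, 1.00 and 1.91 FPKM in scrambled and 2.20, 2.23, 3.05 and 2.15 in anti-miR-29a libraries. Scrambled replicate 2 lay above all anti-miR-29a libraries but replicate 3, which stood apart as the highest. The difference was 0.56 with a standard error of 0.24 (limma, unadjusted p = 0.0441, adjusted p = 0.451), and 0.36 without scrambled replicate 3. Pcdhb22, at the far end of the beta cluster, read 1.87 ± 0.372 and 1.38 ± 0.325 FPKM (scrambled and anti-miR-29a, SD, n = 4), a difference of -0.42 with an interval of -0.91 to 0.067. The 3 most abundant beta genes, Pcdhb17, Pcdhb9 and Pcdhb20, differed by -0.20, 0.15 and -0.14 log2 units with intervals that all included 0.

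Alternate alpha isoforms had a median difference of 0.055 log2 units, 7 of 11 tested members positive, and of -0.036 without anti-miR-29a replicate 4. Pcdha12, the most abundant, read 2.46, 3.90, 3.41 and 3.45 FPKM in scrambled and 3.55, 4.38, 3.92 and 3.87 in anti-miR-29a libraries. Scrambled replicate 1 lay well below the rest and scrambled replicate 2 among the anti-miR-29a libraries, and the difference was 0.26 with an interval of -0.074 to 0.59 (limma, adjusted p = 0.567). Without scrambled replicate 1 it was 0.13. Pcdha3 read 0.936, 1.16, 1.04 and 0.972 FPKM in scrambled and 2.05, 1.59, 1.01 and 1.19 in anti-miR-29a libraries, a difference of 0.43 with an interval of -0.10 to 0.97, and of 0.26 without anti-miR-29a replicate 1.

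The most extreme alpha differences rested on single near-zero estimates. Pcdha6, named here after its values were seen, differed by 0.87 log2 units in all libraries and by -0.17 without scrambled replicate 3, the library at 0.00011 FPKM. Pcdha1 differed by -0.72, and by -0.032 without anti-miR-29a replicate 1, the library at 8.69e-16 FPKM. Pcdha4 and Pcdha11, next to Pcdha12 in abundance, differed by 0.13 and 0.0070, and their sign turned when single libraries were left out.

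Alternate gamma isoforms had median differences of 0.093 log2 units in gamma-a (8 of 12 positive) and 0.094 in gamma-b (5 of 7 positive). Without anti-miR-29a replicate 2 these were -0.00074 and -0.045. Pcdhga7, of smallest p in gamma-a, read 4.71, 7.80, 4.15 and 6.57 FPKM in scrambled and 5.59, 8.15, 8.28 and 7.18 in anti-miR-29a libraries. The anti-miR-29a libraries lay within or just above the wide scrambled range, and the difference was 0.35 with an interval of -0.097 to 0.80 (limma, adjusted p = 0.562). It was 0.21 without scrambled replicate 3. Pcdhga10 and Pcdhga1 followed with differences of -0.27 and 0.21. The most abundant gamma-a isoforms, Pcdhga12, Pcdhga11 and Pcdhga3, differed by 0.11, -0.10 and -0.049. In gamma-b, Pcdhgb4 read 2.18 ± 0.262 and 2.88 ± 0.885 FPKM, a difference of 0.33 with an interval of -0.17 to 0.84, and its anti-miR-29a libraries ranged from 1.70 to 3.85 FPKM. Without anti-miR-29a replicate 3 the difference was 0.18, and without replicate 4 it was 0.56 (limma, unadjusted p = 0.00819, adjusted p = 0.44). Pcdhgb1, Pcdhgb5, Pcdhgb6 and Pcdhgb7 differed by -0.17, 0.13, 0.094 and 0.015 log2 units.

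Summed over each cluster, the levels of both groups were close. The alpha cluster summed to 31.1, 33.0, 31.5 and 33.3 FPKM in scrambled and 31.7, 32.4, 31.2 and 33.5 in anti-miR-29a libraries, means of 32.2 ± 1.11 and 32.2 ± 0.978 (SD, n = 4). The beta cluster summed to 33.3 ± 2.61 and 33.0 ± 2.32 FPKM, and the gamma cluster to 181.7 ± 8.90 and 184.4 ± 12.01 FPKM. Anti-miR-29a means were 99.9%, 99.2% and 101.5% of scrambled means, and the groups overlapped in each cluster. No p is given for these sums, since they pool chosen members.

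**Figure D4:**
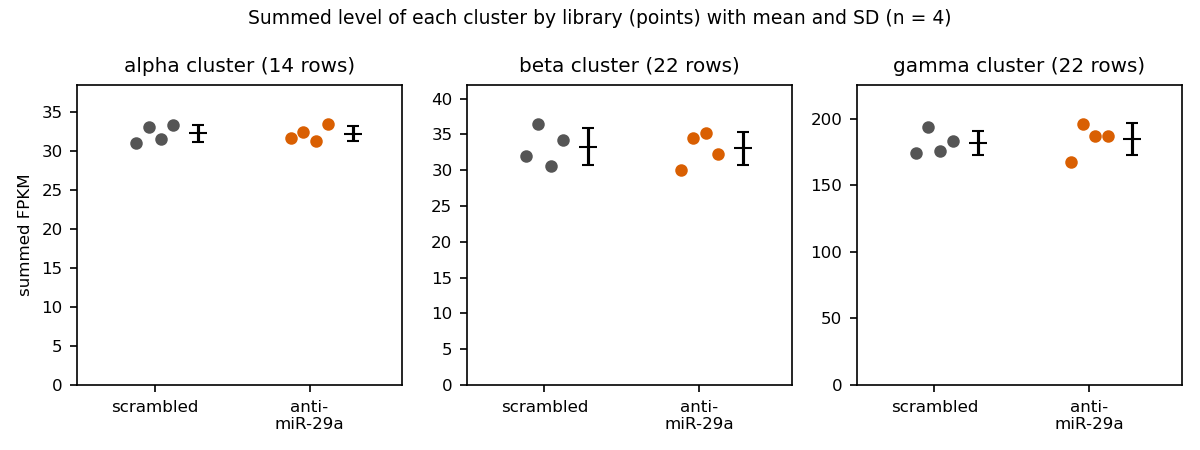
Summed FPKM of the alpha (14 rows), beta (22 rows) and gamma (22 rows) clusters in each library, with scrambled libraries in grey, anti-miR-29a libraries in orange and the mean and SD of 4 libraries in black. Axes start at 0. The groups overlap in all 3 clusters, and the group means are 32.2 and 32.2, 33.3 and 33.0, and 181.7 and 184.4 FPKM.

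In each cluster the sum varied less, relative to its mean, than the median of its rows. Most sums do, since they average their rows and are led by the abundant ones. It is therefore not read as a trait of the clusters. The coefficient of variation between libraries of a group was 3.24% for the alpha sum against a median of 37.4% for its rows, 7.45% against 23.7% for beta, and 5.77% against 17.8% for gamma. The SD of the alpha sum was 1.05 FPKM, below the 1.96 FPKM that independent variation of its rows would give. In the other clusters the SD of the sum lay above that of independent rows. The SD of the beta sum was 2.47 FPKM against 1.55 for independent rows, and that of the gamma sum 10.6 against 6.34. Within the gamma classes the values lay closer, at 4.03 against 3.69 for gamma-a, 1.70 against 1.79 for gamma-b and 5.26 against 4.84 for C-type genes.

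On the log2 scale, alternate alpha isoforms had a median within-group SD of 0.55. For 4244 other tested rows of the same range of mean FPKM the median was 0.34 and the middle 50% spanned 0.23 to 0.50. Beta genes, which share no exons, had a median of 0.30 against 0.32 in 4093 like rows. Gamma-a isoforms stood at 0.25 against 0.19 in 3602 rows, and gamma-b isoforms at 0.27 against 0.26 in 4185 rows. These medians are descriptions, and the part that splitting of shared fragments plays in them was not tested.

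**Figure D5:**
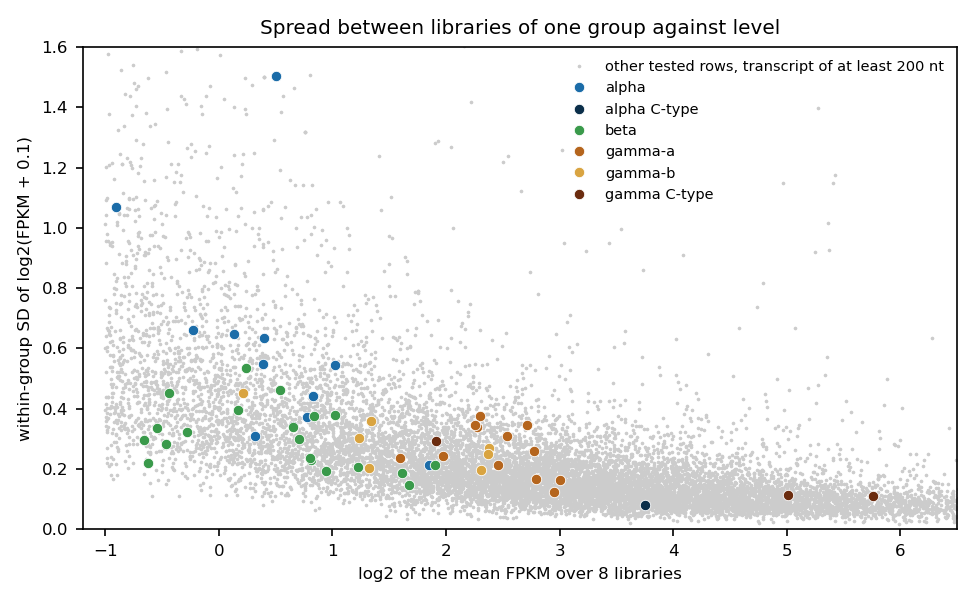
Within-group SD of log2(FPKM + 0.1) against log2 mean FPKM for the 55 tested members (coloured by class) and for other tested rows with a transcript of at least 200 nt (grey, only those within the axes). Alternate alpha isoforms (blue) have a median of 0.55, beta genes lie between 0.15 and 0.54, and Pcdhac2, Pcdhgc3 and Pcdhgc5 lie between 0.081 and 0.11.

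Sites for miR-29 differed between the clusters by their annotation. Sites were counted as TGGTGCT, the reverse complement of bases 2 to 8, in the longest 3' UTR of a gene in GENCODE M21, searched on the transcript strand. The 13 alpha members with an annotated 3' UTR end in the same constant exon. Its UTR part, chromosome 18 at 37185257 to 37187657 (mm10, plus strand), is 2401 nt long. It holds 1 match, 2350 nt after the stop codon and followed by an A, which makes it an 8mer site. The 13 alpha members are therefore 1 UTR and 1 site, not 13 observations. The 21 gamma members with an annotated 3' UTR also end in a common one of 1741 to 1744 nt, at 37840130 to 37841873 of the same chromosome, and it holds 0 matches. Of 22 beta genes, each with a UTR of its own, 2 hold a match, Pcdhb4 and Pcdhb22, and neither is an 8mer.

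Among all 13157 tested rows with a 3' UTR 15.8% hold a match and 3.36% an 8mer. Beside this annotation the alpha cluster as a whole had a median difference of 0.055 log2 units and the gamma cluster 0.085. Pcdhb22 was lower by the values given above, and Pcdhb4 was too low to test, at 0.415 ± 0.113 and 0.323 ± 0.208 FPKM. Whether a site affects the level of these transcripts was not tested.

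Regulators of promoter choice and DNA methylation were read from a list of 30 genes, 25 of them tested. Of these 25, 5 were higher and 2 lower at an unadjusted p under 0.05 (28% in all, beside 10.7% of all tested rows), and 0 passed after adjustment over all rows. Those of smallest p were Dnmt3a and Tet3, which write and oxidise DNA methylation, with differences of 0.69 and 0.38 log2 units (limma, adjusted p = 0.0749 and 0.234). Mau2, a subunit gene of the cohesin loader, differed by 0.22 (limma, adjusted p = 0.369). Groups did not overlap in these 3 genes, and over the list 5 of 25 were apart in the higher and 1 in the lower direction, beside 4.02% and 2.29% of all tested rows. With robust empirical Bayes Dnmt3a had an adjusted p of 0.0438 (limma). That setting called 10 of 13912 rows, against 2 in the main fit.

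Ctcf, which binds the promoters and enhancers of the clusters, read 13.1 ± 1.13 and 13.3 ± 1.21 FPKM, and the cohesin subunit genes Rad21 and Smc1a differed by 0.011 and -0.010. Ctcf, Rad21, Smc1a and Smchd1 were picked for their role. Smc3, Stag1 and Stag2, also cohesin subunit genes of the list, differed by 0.086, 0.0031 and -0.081. The cohesin-associated genes Pds5a and Pds5b differed by -0.20 and -0.27 (limma, unadjusted p = 0.113 and 0.0295, adjusted p = 0.564 and 0.404). Smchd1, a chromatin protein needed to silence protocadherin genes in mouse, read 3.32 ± 0.0829 and 3.13 ± 0.573 FPKM. Dnmt3b, known in mouse to methylate the alternate promoters during development, was low at 0.177 ± 0.150 and 0.334 ± 0.133 FPKM. The median of the whole list was 0.024, beside 0.026 for all tested rows.

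Protocadherins outside the clusters, with other large cadherins of the Fat, Dachsous and Celsr families, formed a list of 21 genes, 18 of them tested. Their median difference was -0.093 log2 units, with 6 of 18 positive and 0 passing after adjustment. At an unadjusted p under 0.05, 3 were lower and 0 higher (16.7% in all, beside 10.7% of all tested rows, of which 3.18% were lower). Pcdh7, Pcdh9, Pcdh19 and Pcdh17, of smallest p, differed by -0.28, -0.23, -0.41 and -0.24 (limma, adjusted p = 0.387, 0.391, 0.466 and 0.474). These adhesion genes stand at separate loci and are not subject to the same promoter choice. Whether they differ from the clustered members was not tested.

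Partners through which protocadherins are known to bind or signal, such as the kinases Ptk2 and Ptk2b and the WAVE actin complex, were 30 genes with 29 tested. The median difference was -0.014, with 1 higher and 2 lower at an unadjusted p under 0.05 and 0 passing. This is 10.3% of the list, close to the 10.7% of all tested rows. Prkcb, a protein kinase C gene, read 114.8 ± 2.90 and 101.0 ± 2.47 FPKM. The WAVE subunit genes Abi2 and Brk1 differed in opposite directions, by -0.20 and 0.18, and Rhoa, a small GTPase gene, by 0.14 (limma, adjusted p = 0.2, 0.219, 0.252 and 0.49 for the 4 genes in this order).

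Genes around the clusters on chromosome 18 were a list of 29, 24 of them tested. Those with a RefSeq position lay 17.6 to 744.4 kb from the nearest member. Of these, 5 were higher and 0 lower at an unadjusted p under 0.05, beside 7.54% and 3.18% of all tested rows, and 0 passed. Tmco6, Ndufa2, Spry4 and Eif4ebp3, at 187.9, 185.7, 744.4 and 264.0 kb, differed by 0.56, 0.29, 0.53 and 0.61 log2 units (limma, adjusted p = 0.22, 0.273, 0.314 and 0.337). Of the listed genes with a RefSeq position 2 lie within the span of the clusters, between beta and gamma. Taf7, a subunit gene of the general transcription factor TFIID, read 1.38 ± 0.302 and 2.04 ± 0.309 FPKM there, a difference of 0.55 (limma, unadjusted p = 0.0227), and Slc25a2 was low at 0.103 ± 0.108 and 0.109 ± 0.112 FPKM. Both were picked for their position.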

How the data were processed

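Visual cortex RNA was sequenced in 8 libraries, 4 per group. The deposited table holds FPKM values made by the authors. The tools named per the submitters' processing notes are Cuffnorm, Bowtie and CASAVA 1.8.2, and the build is mm10, with order, annotation and filters not given in the sources used here. Read totals were not used here, so depth is unknown and no counting intervals are given.

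limma 3.58.1 (R 4.3.3) was run on log2(FPKM + 0.1), with a variance trend and no covariate beside group, over the 13912 rows with a mean of at least 0.5 FPKM. Tests were two-sided at an adjusted threshold of 0.05. The pseudocount shrinks the differences of low genes. The 5 C-type genes also had an exact permutation test over 70 relabellings. The fit was tested on simulated data.

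Transcript lengths and UTRs were read from GENCODE M21, on the same assembly as mm10, and 57 of 58 member symbols matched. Gene order came from RefSeq (GRCm38.p6). The members and lists were chosen with earlier results of these data known. Named genes were all C-type genes, the 3 of smallest p and the 3 of highest mean in each other class, and up to 4 of smallest p from each list, of which 1 is not reported here. Alternatives were other pseudocounts, filters, scalings and weights, robust empirical Bayes, a replicate block, removal of a length and GC trend, and each library left out. Same-numbered libraries did not deviate together (correlations -0.106 to 0.0143), so the numbers do not pair them.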

Additional observations from a re-analysis of the deposited data

Results flagged for a closer look

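Among 122 groups of 4 values examined, 4 held a library far from the other 3 by Dixon's criterion, and chance gives about 1 in 20, or 6.1. Pcdhb1 read 0.0849 FPKM in scrambled replicate 4 and 0 in the other scrambled libraries. Pcdhb3 read 3.05 FPKM in anti-miR-29a replicate 3 against 2.15 to 2.23 in the rest of its group. Pcdhb11 read 0.889 FPKM in the same library against 0.590 to 0.618. Pcdhga6 read 8.89 FPKM in scrambled replicate 3 against 5.63 to 6.18.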

How the results depend on the processing

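In none of the 19 alternatives did a member pass the adjusted threshold (limma, lowest adjusted p of a member 0.36 to 0.61), and the median difference of the members ranged from -0.0057 to 0.067. With each library left out in turn the median was -0.0023 to 0.046, and 1 to 3 members had an unadjusted p under 0.05. With the replicate number as a block 0 of 55 members passed (lowest adjusted p = 0.486) and 0 had an unadjusted p under 0.05, against 2 without it. Of the members named by rule, 4 changed sign under some alternative. Under quantile normalization and median centring Pcdha11 stood at -0.024 and -0.022 and Pcdhgb7 at -0.0057 and -0.014, and Pcdhgb7 at -0.021 with the length and GC trend removed. With 1 library left out, Pcdha11 ranged from -0.22 to 0.27, Pcdha4 from -0.047 to 0.30, Pcdhga3 from -0.14 to 0.043 and Pcdhgb7 from -0.059 to 0.10. The cause was not tested. Dnmt3a passed with robust empirical Bayes at an unchanged 0.69 log2 units (limma, adjusted p = 0.0438). Over the whole table this setting called 10 rows, against 2 in the main fit. With the replicate block and with the filter of 2 FPKM 0 rows were called. With a filter of 2 FPKM only 29 members could be tested. The cluster sums moved by less than 1 SD under every alternative run on them. The number of libraries, 4 a group, limits the precision, and depth is unknown.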
